A study of Homo sapiens with 4 samples.

Results

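ASXL1, TOP1, MYBL2, E2F1, L3MBTL1, PLCG1, CSE1L, NCOA3, ZNF217 and TPX2 are 10 genes of human chromosome 20 linked to leukaemia or to cell growth, and they were followed here in a leukaemia cell line and its imatinib-resistant derivative. They were chosen by name from the 32673 genes of the expression table. The choice was made with an earlier result of the same libraries known, namely that the genes of chromosome 20 were higher in the resistant line, so their differences are given as a description. Calls of members come from the fit over the whole table, no p-value is given for a single member, and no evidence is drawn from them. Each gene is set beside the median of the protein-coding genes of its chromosome.

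The study compared mRNA sequencing of TF1-BA with that of TF1-BAR. TF1-BA is TF1, a human erythroleukaemia line, made to express the BCR-ABL fusion kinase from a retrovirus, and it is sensitive to imatinib, which blocks that kinase. TF1-BAR was derived from TF1-BA by prolonged culture in imatinib and is resistant to it. By the labels, both lines grew with 10% serum and 2 ng/ml GM-CSF, a dose that differs from that in the study's methods, and each was sequenced in 2 libraries of 10000000 cells.

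By the labels, TF1-BAR was kept in 2 µM imatinib and TF1-BA in none. Whether imatinib was present when the RNA was taken was not stated, so the drug and the resistant state cannot be told apart. The titles of the TF1-BAR libraries carry the word vector. An effect of a control vector, if the cells held one, is therefore part of each difference. Each line was a single derivative, and the labels do not say that the libraries came from separate cultures. Spread between the 2 libraries of a line may therefore be technical.

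The libraries held between 15465497 and 18042299 fragments. Pearson's r between log2 levels over 15519 genes was 0.983 for the TF1-BA pair and 0.979 for the TF1-BAR pair, and 0.946 to 0.956 between the lines. The line's own markers were present in every library, among them GATA1, TFRC, CD34 and KIT. Of the markers of cells that a TF1 culture should lack, the T-cell gene CD3E had at most 1 fragment in a library and the epithelial gene EPCAM at most 4. Gene levels are FPKM, fragments per kilobase of transcript scaled to library size, and fold changes are differences of log2(FPKM + 0.5), TF1-BAR minus TF1-BA, with their standard error (SE). A gene was called higher or lower when its adjusted p in limma, a linear model fitted over the 15519 genes with a mean of at least 0.5 FPKM, was under 0.05.

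Chromosome 20 is a chromosome that blood cancers often lose in part and carcinomas often gain. Deletions of its long arm recur in myeloid neoplasms, and the deleted stretch can include L3MBTL1 and MYBL2. Mutations of ASXL1 recur in the same diseases. In carcinomas, gain of the long arm raises the copy number of genes such as NCOA3, ZNF217, CSE1L and TPX2. The 10 genes fall into 4 roles. ASXL1, L3MBTL1, ZNF217 and NCOA3 act on chromatin and transcription, E2F1 and MYBL2 switch on genes of the cell cycle, TPX2, TOP1 and CSE1L serve mitosis, DNA topology and nuclear transport, and PLCG1 relays signals from kinases at the membrane.

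Chromosome 20 was higher in TF1-BAR along its whole length. Of its 454 protein-coding genes in the table, 326 were measured well enough to be tested, and their median log2 fold change was 0.39, with quartiles at 0.21 and 0.60. A level above that of TF1-BA was seen for 295 of them (90.5%) and below it for 31 (9.51%). The 11337 protein-coding genes of the other chromosomes had a median of 0.028, and the next highest chromosome, 16, had a median of 0.10. Windows of 10 Mb along chromosome 20 had medians between 0.30 and 0.52. The 10 members lie between 31.7 and 53.6 Mb, in windows with medians of 0.31 to 0.35.

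Against that chromosome the members divided. Over all genes tested, 16.3% were called higher, 10.5% lower, and 4.75% were called and differed by 1 or more on the log2 scale. Among the 10 members, 4 were called higher (E2F1, PLCG1, ASXL1 and L3MBTL1), 2 were called lower (ZNF217 and TPX2), and the adjusted p of the other 4 (NCOA3, TOP1, CSE1L and MYBL2) missed the threshold. Among the 326 genes of the chromosome 174 were called higher and 8 lower. The members' median log2 fold change was 0.16. The values ran from −0.40 for ZNF217 to 0.79 for E2F1, so that no member reached an absolute value of 1. With a trend on GC content, length and level removed, the members' median was larger. The libraries of the lines did not overlap for 8 of the 10, where the share over all genes tested was 69.3%. Nothing is read from these counts, since the members were picked from a chromosome known to be higher. Leaving out either TF1-BA library ended all 6 calls, and without TF1-BAR replicate 2 the calls were 2 higher and 0 lower. In the limma test without either of them 0 members were called, and at an unadjusted p under 0.05 the counts were 4 higher and 1 lower without replicate 1, and 3 higher and 2 lower without replicate 2. With a library left out, calls became fewer over all genes tested as well, so the loss was not particular to the members. Limma voom on the recovered fragments of every library called 5 higher and 2 lower. The smallest p that an exact permutation of 2 against 2 libraries can give is 0.333.

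**Figure D1:**
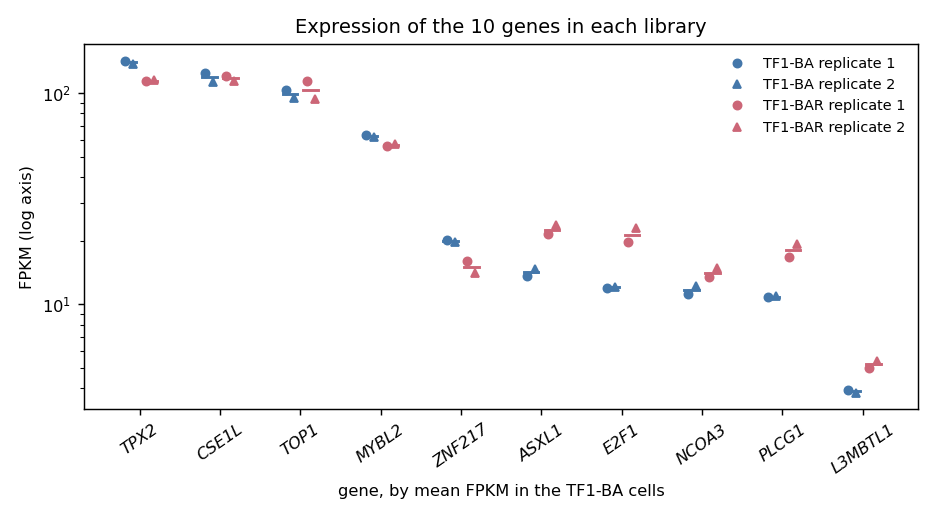
FPKM of the 10 genes on a log axis, in order of their mean in TF1-BA, with 1 symbol for each library (circles replicate 1, triangles replicate 2) and a bar at each line's mean (n = 2). The TF1-BAR symbols of E2F1, PLCG1, ASXL1, L3MBTL1 and NCOA3 sit above those of TF1-BA, those of TPX2, ZNF217 and MYBL2 sit below, and those of TOP1 and CSE1L overlap.

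E2F1, a transcription factor that turns on genes of DNA replication when the retinoblastoma protein releases it, had the largest rise of the 10. The gene spans chr20:33675683-33686404 on the minus strand (GRCh38). Its level was 11.9 and 12.1 FPKM in the TF1-BA libraries and 19.6 and 22.9 FPKM in the TF1-BAR libraries, from 469 to 920 fragments. Both TF1-BAR libraries were above both TF1-BA libraries. The means were 12.0 ± 0.128 and 21.2 ± 2.30 FPKM (SD, n = 2), 1.77 times as high in TF1-BAR, for a log2 fold change of 0.79 (SE 0.094). This was 0.41 above the chromosome's median and higher than 90.2% of its genes. The neighbour at higher coordinates, PXMP4, had a log2 fold change of 0.29 and the one at lower coordinates, NECAB3, was called higher at 0.66.

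MYBL2, also called B-MYB, works with the MuvB complex to switch on genes of mitosis, and it is itself a classical E2F target. It spans chr20:43667019-43716496 on the plus strand. Its libraries read 63.1 and 61.7 FPKM in TF1-BA and 56.0 and 57.1 FPKM in TF1-BAR. The TF1-BAR libraries were the lower ones, without overlap and by a small margin. The mean went from 62.4 ± 0.992 to 56.5 ± 0.783 FPKM (SD, n = 2), a log2 fold change of −0.14 (SE 0.056) that did not pass the threshold. Relative to the chromosome's median it lay 0.53 below, and 11 of the chromosome's 326 tested genes (3.37%) had a lower value. E2F1 and its target gene MYBL2 thus stood towards opposite ends of the chromosome's range.

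The promoters of E2F1 and MYBL2 are shown because one member's factor acts on the promoters of others, and that of CSE1L is shown as the promoter with the most matches to the cell-cycle element CHR. Each runs 5′ to 3′ from 250 bases before the gene's start to 50 bases after it (RefSeq, GRCh38.p14). The capitals mark E2F motifs (TTTCCCGC, TTTGGCGC, TTTCGCGC or TTTGCCGC), the cell-cycle element CHR (TTTGAA or TTCGAA) and CCAAT boxes, each searched on both strands. E2F1 lies at chr20:33686336-33686635 on the minus strand, MYBL2 at chr20:43666864-43667163 on the plus strand and CSE1L at chr20:49046062-49046361 on the plus strand.
E2F1: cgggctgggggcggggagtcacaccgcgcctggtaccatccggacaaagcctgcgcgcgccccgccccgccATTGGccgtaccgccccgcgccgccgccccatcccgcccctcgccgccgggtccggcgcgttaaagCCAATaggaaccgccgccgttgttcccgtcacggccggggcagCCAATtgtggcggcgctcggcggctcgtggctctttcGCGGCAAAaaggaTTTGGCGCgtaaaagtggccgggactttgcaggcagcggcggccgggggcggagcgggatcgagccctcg
MYBL2: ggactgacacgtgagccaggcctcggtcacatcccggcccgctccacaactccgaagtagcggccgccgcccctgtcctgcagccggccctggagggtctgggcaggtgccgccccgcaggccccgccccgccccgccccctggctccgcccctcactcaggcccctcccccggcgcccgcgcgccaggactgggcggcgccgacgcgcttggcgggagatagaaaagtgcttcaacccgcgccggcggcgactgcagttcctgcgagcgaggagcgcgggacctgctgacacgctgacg
CSE1L: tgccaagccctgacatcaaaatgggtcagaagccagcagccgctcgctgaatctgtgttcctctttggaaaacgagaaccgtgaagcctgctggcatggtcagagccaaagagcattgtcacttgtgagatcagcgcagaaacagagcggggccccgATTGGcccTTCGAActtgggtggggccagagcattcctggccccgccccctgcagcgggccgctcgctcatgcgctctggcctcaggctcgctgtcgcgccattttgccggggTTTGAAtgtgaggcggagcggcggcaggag

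The E2F1 promoter held TTTGGCGC at 20 bases before the start and TTTGCCGC on the opposite strand at 33 bases before it. It also held CCAAT at 113 and 70 bases before the start and, on the opposite strand, at 179. The E2F motifs occurred in 3.31% of the 35116 promoters of the reference, CHR in 16.4% and CCAAT in 34.6%. In the CSE1L promoter TTCGAA, which reads the same on both strands, stood 85 bases before the start and TTTGAA 21 bases after it, with CCAAT on the opposite strand at 93 bases before. None of these letters was found in the MYBL2 window, nor in those of TOP1, PLCG1 and NCOA3. L3MBTL1 held TTTGCCGC on the opposite strand at 196 bases before the start of 1 of its 2 promoters. ASXL1 and ZNF217 had a TTTGAA on the opposite strand. TPX2 was not matched. A match is a description of the letters and not a binding site, and nothing follows about the factors from a window without one.

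TPX2, which activates the kinase AURKA on the mitotic spindle and helps to nucleate its microtubules, was among the lowest genes of the chromosome. It spans chr20:31739271-31801805 on the plus strand. The TF1-BA libraries had 142 and 137 FPKM, from 9250 and 7619 fragments, and the TF1-BAR libraries 113 and 115 FPKM, from 6442 and 6653 fragments. Both TF1-BAR libraries were lower, and libraries of a line lay close together. The means of 139 ± 3.93 and 114 ± 1.02 FPKM (SD, n = 2) gave a log2 fold change of −0.29 (SE 0.055), called lower. That was 0.67 below the chromosome's median, with 7 of its 326 tested genes (2.15%) lower still. Its neighbours BCL2L1, an inhibitor of apoptosis, and DUSP15, a phosphatase, had values of 0.28 and 0.41. These are levels of whole cultures, in which fewer cells in a phase of the cycle and less RNA per cell cannot be told apart.

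ZNF217, a zinc-finger repressor that sits in the CoREST complex with histone demethylase and deacetylase, had the lowest value of the 10. It spans chr20:53567065-53609907 on the minus strand. It had 20.1 and 19.6 FPKM in the TF1-BA libraries and 16.0 and 14.0 FPKM in the TF1-BAR libraries. No library of one line entered the range of the other. From 19.9 ± 0.365 to 15.0 ± 1.38 FPKM (SD, n = 2) the log2 fold change was −0.40 (SE 0.086), called lower, which is 0.78 below the chromosome's median. In order from the lowest it was number 6 of the 326. The nearest tested genes lay 1363 kb away (ZFP64, 0.45) and 598 kb away (PFDN4, 0.16), so it stands in a stretch with few expressed genes. The 2 noncoding genes that overlap it had at most 17 fragments in a library.

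ASXL1, a partner of the BAP1 deubiquitinase that removes ubiquitin from histone H2A, was called higher. Spanning chr20:32358344-32439319 on the plus strand, it had 13.6 and 14.8 FPKM in TF1-BA and 21.5 and 23.6 FPKM in TF1-BAR, from 2159 to 3586 fragments. The lines were well apart. Means of 14.2 ± 0.795 and 22.6 ± 1.47 FPKM (SD, n = 2) gave a log2 fold change of 0.65 (SE 0.083), 0.26 above the chromosome's median and higher than 79.8% of its genes. Neighbours on both sides were called higher, KIF3B, a kinesin motor, at 0.37 and NOL4L at 0.52.

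PLCG1, phospholipase C gamma 1, cleaves a membrane lipid into the messengers that release calcium and activate protein kinase C, and BCR-ABL is among the kinases that act upstream of it. It spans chr20:41136960-41196801 on the plus strand. Levels of 10.8 and 10.9 FPKM in TF1-BA stood against 16.7 and 19.3 FPKM in TF1-BAR, without overlap. With means of 10.9 ± 0.0457 and 18.0 ± 1.87 FPKM (SD, n = 2) the log2 fold change was 0.70 (SE 0.093), called higher. It lay 0.31 above the chromosome's median, past 83.4% of its genes. ZHX3, which overlaps PLCG1 on the other strand, had 697 to 956 fragments against 1628 to 2996 for PLCG1. The library kit was not stated to keep the strand, so reads in the shared stretch cannot be told apart. ZHX3 itself had a log2 fold change of 0.20.

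TOP1, DNA topoisomerase I, which relaxes supercoils ahead of polymerases and is the target of camptothecins, ends 12.5 kb before PLCG1 begins, at chr20:41028818-41124487 on the plus strand. Its libraries read 103 and 94.6 FPKM in TF1-BA and 113 and 93.7 FPKM in TF1-BAR. The lowest and the highest of the 4 were both TF1-BAR libraries, so the lines overlapped. Means of 98.6 ± 5.75 and 103.6 ± 13.9 FPKM (SD, n = 2) gave a log2 fold change of 0.065 (SE 0.11), 0.32 below the chromosome's median, and without TF1-BAR replicate 1 it was −0.071. TOP1 and PLCG1 are adjacent among the tested protein-coding genes, and the 2 values lie on opposite sides of the median.

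L3MBTL1, a polycomb-related protein that reads methylated histones and compacts chromatin, was close to the chromosome's median. It spans chr20:43507680-43550950 on the plus strand. The TF1-BA libraries had 3.92 and 3.82 FPKM and the TF1-BAR libraries 5.01 and 5.41 FPKM, which did not overlap. The means were 3.87 ± 0.0736 and 5.21 ± 0.281 FPKM (SD, n = 2). Its log2 fold change of 0.39 (SE 0.086), called higher, left 49.7% of the chromosome's genes below it. Of its neighbours, SGK2, a kinase of the SGK family, was called higher at 0.72 and the splicing factor SRSF6 had 0.36. SGK2 had a mean of only 0.616 FPKM in TF1-BA, where the added 0.5 FPKM shrinks the fold change. MYBL2 begins some way beyond, with IFT52 (0.24) and TOX2 (−0.11) on its sides.

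NCOA3, a coactivator that nuclear receptors recruit and that is also called AIB1, spans chr20:47501902-47656877 on the plus strand. It read 11.2 and 12.3 FPKM in TF1-BA and 13.4 and 14.8 FPKM in TF1-BAR. The libraries did not overlap, but those of each line differed about as much as the lines did at their nearest. The means were 11.7 ± 0.762 and 14.1 ± 1.01 FPKM (SD, n = 2), for a log2 fold change of 0.26 (SE 0.089) that did not pass the threshold and lay 0.13 below the chromosome's median. Both neighbours were called higher, ZMYND8 at 0.61 and PREX1, an exchange factor for Rac, at 0.80.

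CSE1L, the exportin that returns importin alpha to the cytoplasm, had overlapping libraries. It spans chr20:49046246-49096960 on the plus strand. There were 125 and 112 FPKM in TF1-BA and 121 and 114 FPKM in TF1-BAR, so both TF1-BAR libraries lay inside the range of TF1-BA. Means of 118.6 ± 8.87 and 117.4 ± 4.83 FPKM (SD, n = 2) gave a log2 fold change of −0.013 (SE 0.076), which was 0.40 below the chromosome's median and above 8.59% of its genes. The sign was not stable. With the trend on GC content, length and level removed it was 0.23, 0.17 below the median, and with the replicate block added to that fit it was called higher. Its neighbour STAU1 was called higher at 0.35, and ARFGEF2 had 0.23.

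**Figure D2:**
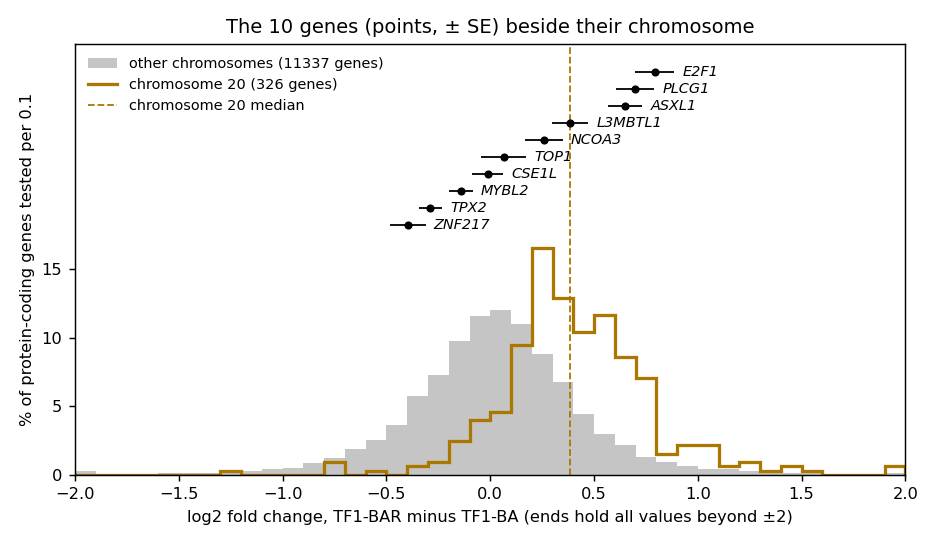
Share of protein-coding genes (y axis, percent in each step of 0.1) by log2 fold change, TF1-BAR minus TF1-BA (x axis), for the 326 tested genes of chromosome 20 (line) and the 11337 of other chromosomes (grey), with the 10 members above as points with their SE at arbitrary heights. The chromosome 20 genes centre on 0.39 (dashed line) and the others on 0.028, and ZNF217, TPX2, MYBL2 and CSE1L stand in the lower tail of chromosome 20, although CSE1L turned to 0.23 with the trend on GC content, length and level removed.

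The position of the members against the chromosome was also taken in each of the 4 pairings of a TF1-BAR with a TF1-BA library. In those pairs the chromosome's median log2 difference was 0.34 to 0.43 and that of the other chromosomes 0.013 to 0.042. E2F1 (0.67 to 0.91), PLCG1 (0.59 to 0.80) and ASXL1 (0.53 to 0.77) were above the chromosome's median in 4 of 4 pairs. TPX2 (−0.33 to −0.25), ZNF217 (−0.51 to −0.29), MYBL2 (−0.17 to −0.11), CSE1L (−0.13 to 0.10), TOP1 (−0.13 to 0.26) and NCOA3 (0.12 to 0.39) were below it in 4 of 4. L3MBTL1 was below it in 2. The pairs share libraries and are a description of the spread.

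Level and base composition moved with the position of some members. TPX2, CSE1L, TOP1 and MYBL2 belonged to the most abundant of 4 equal bins of the chromosome's tested genes, those with at least 25.2 FPKM, whose median was 0.35 against 0.40 in the least abundant bin. ZNF217, the lowest member, shared the bin below with ASXL1, E2F1, PLCG1 and NCOA3. TPX2, CSE1L, TOP1, NCOA3 and ZNF217 belonged to the bin with the lowest GC content, 35.4% to 47.3%, whose median was 0.30 against 0.45 in the highest bin. That highest bin held both MYBL2 and E2F1. On the other chromosomes the lowest and highest GC bins had medians of −0.055 and 0.11. With a trend on GC content, length and level removed, the distance to the chromosome's median became −0.58 for TPX2, −0.71 for ZNF217, −0.48 for MYBL2, −0.17 for CSE1L and −0.15 for TOP1. Both lower calls, TPX2 and ZNF217, were lost there, as was that of L3MBTL1, whose distance became −0.085. None of the 3 changed direction.

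The order of the levels shifted in part. In TF1-BA it ran TPX2, CSE1L, TOP1, MYBL2, ZNF217, ASXL1, E2F1, NCOA3, PLCG1 and L3MBTL1, from the highest FPKM to the lowest, and the libraries of E2F1 and NCOA3 overlapped. In TF1-BAR it ran CSE1L, TPX2, TOP1, MYBL2, ASXL1, E2F1, PLCG1, ZNF217, NCOA3 and L3MBTL1. The neighbours in that order whose libraries overlapped were CSE1L with TPX2, TPX2 with TOP1, ASXL1 with E2F1, and ZNF217 with NCOA3. ZNF217 moved from above ASXL1, E2F1 and PLCG1 to below them.

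**Figure D3:**
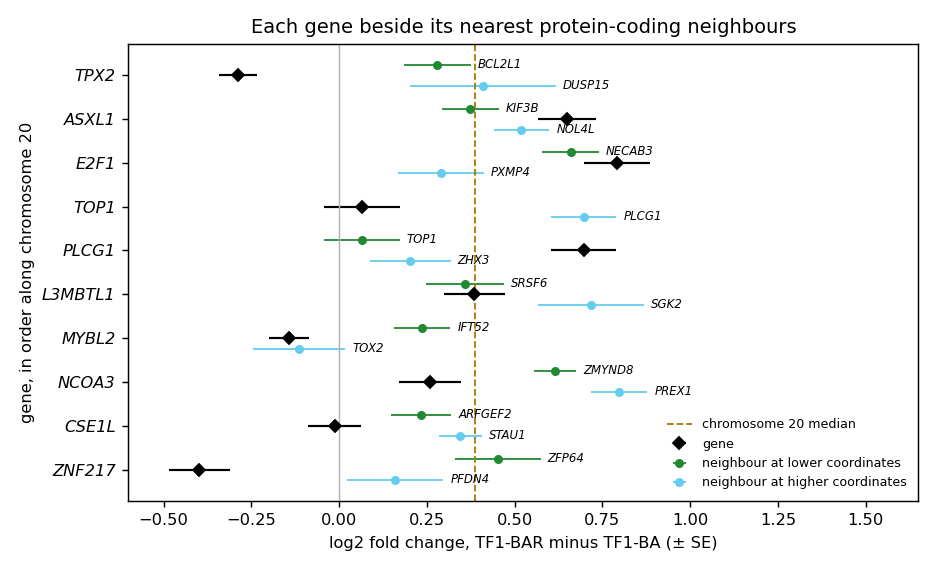
Log2 fold changes, TF1-BAR minus TF1-BA (x axis), of the 10 members (diamonds) and of the neighbouring tested protein-coding genes reported on each side along chromosome 20 (circles), with bars for the SE and the chromosome's median as a dashed line. ZNF217, TPX2, MYBL2 and CSE1L lie left of 0 (CSE1L at −0.013, and at 0.23 with the trend on GC content, length and level removed), whereas 16 of the 17 neighbouring genes, all but TOX2, lie right of it. Of the chromosome's 326 tested genes, 90.5% had values above 0.

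The genes beside the members come from the same chromosome, known beforehand to be higher, so their counts are a description. The 17 distinct neighbours reported had a median log2 fold change of 0.36, with values from −0.11 for TOX2 to 0.80 for PREX1. A value above 0 was seen for 16 of them and 7 were called higher. A list of 24 other cancer-linked genes of chromosome 20 had 22 tested genes and a median of 0.32, of which 11 were called higher and 1 lower. At the upper end of the list were SRC, a tyrosine kinase (0.89), NFATC2, a calcium-regulated transcription factor (0.85), and SGK2. As ratios of mean FPKM these were 1.91, 2.45 and 2.17. NFATC2 and SGK2 had only 0.630 and 0.616 FPKM in TF1-BA, so the 0.5 FPKM added before the logarithm shrinks their fold changes. SRC had 7.87 and 8.56 FPKM in TF1-BA and 14.5 and 17.0 FPKM in TF1-BAR. At the lower end of the list were ID1, an inhibitor of differentiation factors (−0.57, called lower), PTPN1, a phosphatase (−0.25), and AURKA, the mitotic kinase that TPX2 activates (−0.14). AURKA had 49.2 and 43.2 FPKM in TF1-BA and 41.2 and 42.5 FPKM in TF1-BAR.

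Genes that work with the members or in the same processes, but lie on other chromosomes, are given with their adjusted p over all genes tested. The partner lists were drawn up with earlier results of these data known, so their counts are a description. The 11 lists held 173 genes, of which 166 were tested, and they share some genes. Together 25 were called higher (15.1%, beside 16.3% of all genes tested) and 36 lower (21.7%, beside 10.5%), with a median log2 fold change of 0.0051. Of the 166 genes, 7 lie on chromosome 10, which was the lowest chromosome with a median of −0.42, and without them 25 were called higher and 30 lower. The counts rest on both TF1-BA libraries, as do most of the calls over all genes tested, and the same holds for each list below. Without replicate 1 of TF1-BA the adjusted limma test called 0 higher and 0 lower, with 20 and 33 at an unadjusted p under 0.05, and without replicate 2 likewise 0 and 0, with 17 and 37. Without TF1-BAR replicate 2 the counts were 3 and 14. With every library they were 4 and 14 without the filter on low levels, 14 and 22 by eBayes without its trend, and 35 and 45 in the test on recovered fragments (limma voom). Over all genes tested the calls in either direction numbered 4167. In those settings they numbered 1446 (of 30853 tested), 3088 and 5874, in the same order.

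In the list of E2F factors, their dimer partners, the retinoblastoma family and the cyclin D kinases, 8 of 16 tested genes were called higher, with a median of 0.25. E2F2, another activator of the family, rose by a log2 fold change of 0.72 (SE 0.15, adjusted p = 0.0299), from 3.01 ± 0.366 to 5.32 ± 1.00 FPKM (SD, n = 2). TFDP2, which pairs with E2F proteins on DNA, rose by 0.58 (adjusted p = 0.0175) and CCND1, cyclin D1, by 0.56 (adjusted p = 0.0200). E2F6, a repressor of the family, rose by 0.52 (adjusted p = 0.0111) and E2F3 by 0.39 (adjusted p = 0.0206). The list thus holds activators and repressors of transcription among its risen genes. By the adjusted limma test the count of 8 was 0 without TF1-BA replicate 1, 0 without TF1-BA replicate 2 and 0 without TF1-BAR replicate 2, where 7, 7 and 8 had an unadjusted p under 0.05. With every library it was 1 without the filter on low levels, 6 by eBayes without its trend and 8 by limma voom.

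The list of targets held 32 tested genes of replication and mitosis that E2F factors and MYBL2 are known to switch on. Of these, 14 were called lower (43.8%, beside 10.5% of all genes tested), 2 higher (6.25%, beside 16.3%) and 16 did not pass. Their median was −0.27, and 10 of them had values above 0. CDK1, the kinase of mitotic entry, fell most, with 41.4 and 35.7 FPKM in TF1-BA and 15.0 and 12.0 FPKM in TF1-BAR. The libraries were far apart, and the log2 fold change was −1.49 (SE 0.14, adjusted p = 0.00595). CCNB2, a B-type cyclin, fell by 0.98 on the log2 scale (adjusted p = 0.00394), MKI67, the proliferation marker, by 0.87 (adjusted p = 0.00534) and RRM2, a subunit of ribonucleotide reductase, by 0.80 (adjusted p = 0.0101). CDK1 and MKI67 lie on chromosome 10. MCM7, a subunit of the replicative helicase, was among the genes called higher (0.54, adjusted p = 0.0175) and is named outside the rule, after its value was seen. With the trend on GC content, length and level removed, 9 of these targets were called lower and 2 higher. Without TF1-BAR replicate 2 the counts were 6 and 1, and without a TF1-BA library 0 and 0. At an unadjusted p under 0.05 the latter were 13 and 2 without TF1-BA replicate 1 and 15 and 2 without replicate 2, and limma voom with every library called 16 and 3. Without the filter on low levels 6 were called lower and 1 higher, and by eBayes without its trend 8 and 2.

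The list of MYBL2 and its complex held calls in both directions. Of 13 tested genes of MuvB, its repressive form DREAM and the MYB family, 3 were called higher (23.1%) and 1 lower (7.69%), with a median of 0.12, beside 16.3% and 10.5% of all genes tested. E2F5 (0.44, adjusted p = 0.0278), E2F4 (0.33, adjusted p = 0.0400) and RBBP4 (0.31, adjusted p = 0.0280), which are parts of the repressive form, rose. CCNF, an F-box protein of the ubiquitin system, fell by 0.38 on the log2 scale (adjusted p = 0.0272). The relatives of MYBL2 did not pass the test. MYB, the haematopoietic member, had 77.9 ± 9.70 FPKM in TF1-BA and 94.2 ± 1.22 FPKM in TF1-BAR (SD, n = 2), a log2 fold change of 0.28 (adjusted p = 0.0944), and MYBL1 had 0.19 (adjusted p = 0.419).

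The list of TPX2 held 14 tested genes of the spindle and of mitosis. Of these, 8 were called lower (57.1%, beside 10.5% of all genes tested), 0 higher (beside 16.3%) and 6 did not pass. A value above 0 was seen for 3 of the 14. The median of the list was −0.42, the lowest of the 11 lists. Some of its genes, BUB1 among them, are also in the list of E2F and MYBL2 targets. HMMR, a microtubule-binding protein that brings TPX2 to spindle poles, fell by 0.82 on the log2 scale (adjusted p = 0.0143), from 39.4 ± 2.40 to 22.2 ± 3.67 FPKM (SD, n = 2). BUB1, a checkpoint kinase, fell by 0.72 (adjusted p = 0.00561), KIF11, the motor that separates the poles, by 0.71 (adjusted p = 0.0108) and NUSAP1, a spindle-associated protein, by 0.70 (adjusted p = 0.0101). KIF11 lies on chromosome 10. Beside them TPX2 itself had −0.29 and AURKA −0.14, on a chromosome with a median of 0.39. In the limma test the count of 8 was 4 without TF1-BAR replicate 2 and 0 without a TF1-BA library, where 8 (without replicate 1) and 9 (without replicate 2) had an unadjusted p under 0.05. With every library it was 4 without the filter on low levels, 6 by eBayes without its trend and 9 by limma voom.

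**Figure D4:**
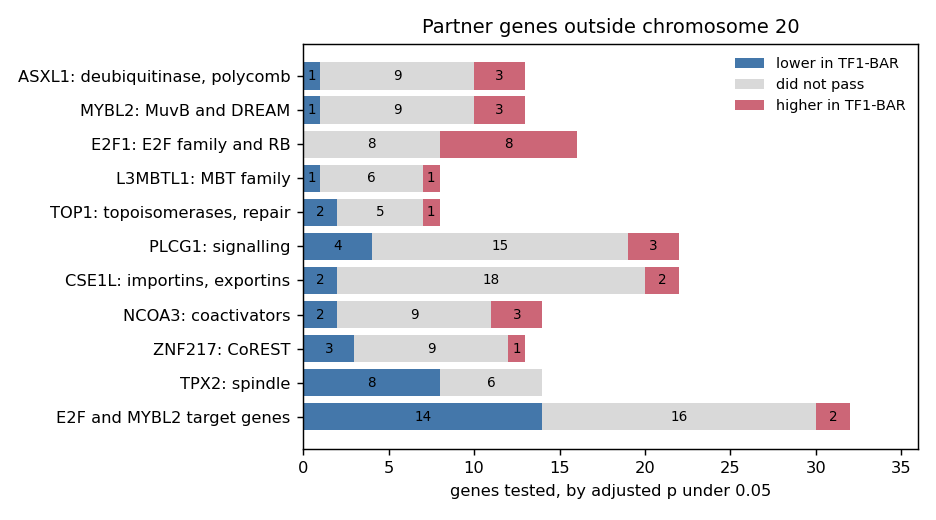
Number of tested genes (x axis) in each of the 11 partner lists, outside chromosome 20, split into those called lower in TF1-BAR, those that did not pass and those called higher at an adjusted p under 0.05 (limma). The lower calls are most numerous among the E2F and MYBL2 targets (14 of 32) and the spindle genes (8 of 14), and the higher calls in the E2F list (8 of 16). The target and spindle lists share some genes.

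In the signalling list of PLCG1 22 genes were tested, 3 called higher (13.6%) and 4 lower (18.2%), with a median of −0.028. Over all genes tested the shares were 16.3% and 10.5%. VAV1, an exchange factor of blood cells that acts downstream of tyrosine kinases, rose by a log2 fold change of 0.68 (adjusted p = 0.00781), from 13.8 ± 0.633 to 22.5 ± 1.06 FPKM (SD, n = 2). ITPR3, a calcium channel opened by one product of PLCG1, had 0.92 from only 43, 39, 114 and 180 fragments. Its mean FPKM was 0.248 in TF1-BA and 0.934 in TF1-BAR, a ratio of 3.76, which the 0.5 FPKM added before the logarithm shrinks. It passed the filter of 0.5 FPKM only through the TF1-BAR libraries, so no adjusted p is given for it, although it is among the 3 called higher. With a mean of at least 1 FPKM asked for, 2 genes of the list were called higher. PRKCB, a protein kinase C, fell by 0.57 (adjusted p = 0.0106) and LAT2, a membrane adaptor related to LAT, by 0.54 (adjusted p = 0.0133). PLCG2, the close relative of PLCG1 on chromosome 16, had 4.06 ± 0.0111 and 4.25 ± 0.0392 FPKM (SD, n = 2), a log2 fold change of 0.058 (adjusted p = 0.626).

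The chromatin lists were mixed. Among 13 genes of the ASXL1, BAP1 and polycomb list 3 were called higher (23.1%) and 1 lower (7.69%), with a median of 0.056. Over all genes tested the shares were 16.3% and 10.5%. OGT, the enzyme that attaches N-acetylglucosamine to nuclear proteins and binds the BAP1 complex, rose by 0.81 (adjusted p = 0.00563), from 66.7 ± 3.10 to 117 ± 6.37 FPKM (SD, n = 2). EZH1, a polycomb methyltransferase, rose by 0.59 (adjusted p = 0.0224) and FOXK2 by 0.40 (adjusted p = 0.0486), and KDM1B, a histone demethylase, fell by 0.38 (adjusted p = 0.0279). ASXL2, the paralogue of ASXL1, had a log2 fold change of −0.29 (adjusted p = 0.0695).

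The list of ZNF217 holds more than the parts of CoREST. Of its 13 tested genes, 1 was called higher (7.69%) and 3 lower (23.1%), with a median of 0.043. Over all genes tested the shares were 16.3% and 10.5%. RCOR1, the scaffold of CoREST, had 76.0 ± 2.90 FPKM in TF1-BA and 38.2 ± 0.0860 FPKM in TF1-BAR (SD, n = 2), and fell by 0.98 on the log2 scale (adjusted p = 0.00344). GATA3, a transcription factor that is not a part of CoREST, fell by 0.78 (adjusted p = 0.0253). The corepressor CTBP2 fell by 0.48 (adjusted p = 0.0263), and both lie on chromosome 10. ZMYM3, a zinc-finger protein of the complex, rose by 0.31 (adjusted p = 0.0313). ZNF217 and its scaffold RCOR1 were thus both lower in TF1-BAR.

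In the list of NCOA3, 14 coactivators and nuclear receptors were tested, 3 called higher (21.4%) and 2 lower (14.3%), with a median of 0.17. Over all genes tested the shares were 16.3% and 10.5%. RXRA, the retinoid X receptor alpha, rose by 0.76 (adjusted p = 0.0121), RARA, the retinoic acid receptor alpha, by 0.49 (adjusted p = 0.0318), while NCOA4, which also directs ferritin to degradation, fell by 0.67 (adjusted p = 0.00603) and NCOA7 by 0.66 (adjusted p = 0.0131). NCOA4 lies on chromosome 10. The family members closest to NCOA3 did not pass the test, with values of −0.044 for NCOA1 (adjusted p = 0.742) and 0.17 for NCOA2 (adjusted p = 0.243).

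Among the 8 tested genes of the L3MBTL1 list, 1 was called higher (12.5%) and 1 lower (12.5%), with a median of 0.10. Over all genes tested the shares were 16.3% and 10.5%. SCMH1, a polycomb protein, rose by 0.62 (adjusted p = 0.0164), and KMT5A, the enzyme that lays down a histone mark read by L3MBTL1, fell by 0.54 (adjusted p = 0.0199). L3MBTL2 had −0.14 (adjusted p = 0.400). In the list of topoisomerases and repair of their DNA complexes 1 of 8 was called higher and 2 lower, with a median of 0.053. TOP1MT, the mitochondrial relative of TOP1, rose by 0.30 (adjusted p = 0.0407). TDP1, which cuts trapped TOP1 from DNA, fell by 0.52 (adjusted p = 0.0151), from 14.7 ± 1.12 to 10.1 ± 0.0601 FPKM (SD, n = 2), and PARP1, a sensor of DNA breaks, fell by 0.30 (adjusted p = 0.0304).

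Of 22 importins, exportins and Ran regulators in the list of CSE1L, 2 were called higher (9.09%) and 2 lower (9.09%), with a median of −0.0047. Over all genes tested the shares were 16.3% and 10.5%. KPNA2, an importin alpha and thus a cargo of CSE1L, fell by 0.39 (adjusted p = 0.0205), from 70.2 ± 0.194 to 53.5 ± 3.60 FPKM (SD, n = 2), and RANGAP1, which ends the Ran cycle in the cytoplasm, fell by 0.47 (adjusted p = 0.0130). KPNB1, the importin beta, rose by 0.29 (adjusted p = 0.0324) and IPO9 by 0.30 (adjusted p = 0.0379).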

How the data were processed

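mRNA of TF1-BA and TF1-BAR (n = 2 libraries each) was sequenced in pairs of reads. The authors aligned reads to GRCh38 with TopHat2 2.0.13 and made FPKM with Cufflinks and Cuffdiff 2.2.0. The deposited FPKM are per kilobase and scaled to library size, and the annotation release was not given in the sources used here. The authors' own test used counts, which the FPKM are not, so the values were tested as log2(FPKM + 0.5) in limma 3.58.1 (R 4.3.3), with lmFit and eBayes with trend, for genes with a mean of at least 0.5 FPKM and Benjamini-Hochberg adjustment over all of them. Fragments per gene were recovered from the steps of the FPKM values with library sizes taken from the values of 1 fragment. For 14306 of the 30853 genes above 0 the GENCODE lengths gave whole fragments in all 4 libraries (within 0.002), and for the other 16547 the smallest length that did so was fitted, so these are whole by construction. Intervals from counting were not used. Chi-square of the fragments per degree of freedom was 4.22 and 7.43 within lines, above sampling noise.

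The members, the lists and the naming rule were chosen with earlier results of these data known. Named were the 10 members, their tested protein-coding neighbours, the highest and lowest 3 of the other chromosome 20 list, up to 4 called genes of largest change in each partner list, and the members' nearest paralogues. Alternatives were other added constants, filters, scalings, moderation, a replicate block and leaving out each library. Limma voom on fragments, removal of a spline trend (4 degrees of freedom) on GC content, length and level, and partner lists without chromosome 10 were added after the data were seen. The limma fit was also run on simulated fragments with known changes, and the outcome is not reported here. Some neighbouring and partner genes that the naming rule picks are not reported here.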

Additional observations from a re-analysis of the deposited data

How the results depend on the processing

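ASXL1, E2F1, PLCG1, L3MBTL1, NCOA3, MYBL2, TPX2 and ZNF217 kept their direction under the alternatives that could change it. Of the 17 run for each, 5 leave the log2 fold change as it is by construction and the other 12 gave 11 distinct values, with ranges of log2 fold change of 0.58 to 0.72, 0.68 to 0.90, 0.59 to 0.80, 0.31 to 0.45, 0.19 to 0.33, −0.17 to −0.074, −0.34 to −0.18 and −0.49 to −0.31. The calls of L3MBTL1 and TPX2 were lost in 8 of the 17 and that of ZNF217 in 7. CSE1L turned to 0.055 rescaled to TPM, 0.063 without TF1-BA replicate 1, 0.029 without TF1-BAR replicate 2 and 0.23 with the trend on GC content, length and level removed, with or without the replicate block, and with the block CSE1L was called higher. Without TF1-BAR replicate 1 TOP1 turned to −0.071, PFDN4 to −0.034, TOX2 to 0.065 and NCOA1 to 0.035, and with each library left out in turn the values reached 0.20 for TOP1, −0.29 for TOX2, −0.12 for NCOA1 and −0.089 for CSE1L at their other ends. NCOA1 was 0.020 rescaled to TPM, and PLCG2 was −0.027 after quantile normalization and −0.016 with the trend removed, with or without the block. The cause was not tested.

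Members called higher numbered 4, 0 to 3 with a library left out, 3 without the filter, 3 after quantile normalization, 3 with the trend on GC content, length and level removed, and 5 by limma voom. With that trend removed and the replicate block they numbered 5, namely ASXL1, E2F1, PLCG1, NCOA3 and CSE1L, without L3MBTL1. Members called lower numbered 2, 0 to 1 with a library left out, 0 without the filter, 0 by eBayes without its trend, and 0 with the trend on GC content, length and level removed, also with the replicate block. With a change of 1 or more on the log2 scale also asked for, the member counts were 0 higher and 0 lower. At an unadjusted p under 0.05 the limma fit had 5 members higher and 2 lower. Partner genes called higher numbered 25, and 4 without the filter, 14 by eBayes without its trend and 0 to 23 with a library left out. Those called lower numbered 36, and 14, 22 and 0 to 28. Without the filter 30853 genes were tested in place of 15519. The chromosome 20 median of 0.39 was 0.35 with 1 FPKM added, 0.42 with 0.1 FPKM added, 0.45 rescaled to TPM, 0.34 after quantile normalization, 0.43 by limma voom and 0.35 to 0.43 with a library left out. The members' median of 0.16 became 0.28 with the trend removed, with or without the block.

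Libraries with the same number did not pair. Their deviations from the line means correlated at 0.065 over 15519 genes in 2 pairs, and with the number as a replicate block the calls were 4 members higher and 2 lower, and 23 partner genes higher and 36 lower. With 2 libraries a line, leaving one out assumes that the lone library varies like the other line.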
